A study of Homo sapiens with 6 samples.

Results

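The genes described here are 55 interferon-stimulated genes and genes of interferon signalling, measured in xenografts of the U87-EV human glioblastoma line. They were taken as every probe set that the array annotation assigns to exactly 1 gene symbol of the list. That gave 102 probe sets for 54 of the 55 genes, out of 19775 genes with such a probe set on the array. STAT2 had no probe set analysed here. The study set tumours of mice given bevacizumab, an antibody that neutralises human VEGF-A, beside tumours of mice given saline, with 3 Affymetrix arrays in each group. U87 cells had been implanted with Matrigel under the skin of female BALB/c SCID mice aged 6 to 8 weeks, a strain without functional T and B cells that keeps macrophages, neutrophils and natural killer cells. Mice of the first group received 10 mg/kg bevacizumab into the peritoneum at intervals of 3 days, starting at tumour volumes of 150 to 200 mm3, and those of the second received saline, in both cases up to a tumour diameter of 15 to 30 mm. There were 5 mice per group at the start, all tumours come from the same cell line, and nothing in the labels states that every array is a separate mouse. The p-values therefore cover only array-to-array spread, some of which may be technical. What EV stands for is not given in the labels.

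Type I interferons bind a receptor made of IFNAR1 and IFNAR2, whose kinases JAK1 and TYK2 pass the signal on by phosphorylation. The complex ISGF3, with IRF9 as its DNA-binding part, then binds the interferon-stimulated response element of its target genes. The targets encode proteins that recognise, trap or degrade viral RNA, tag proteins with the ubiquitin-like ISG15, or feed back on the pathway. Many keep a low level of expression in tumour cells without infection.

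Levels are the authors' GCRMA values in log2 units, so that a gain of 1 is a doubling. Array medians lay between 2.49 and 2.51, and between 33.3% and 34.3% of each array's probe sets were at the table's minimum. The glioma and mesenchymal genes VIM, CD44, TNC, NES and CHI3L1 were measured on every array, while GFAP, OLIG2 and S100B read at most 2.30 and SOX2 between 2.82 and 4.30, so the astrocytic defining markers were absent or dim. Markers of other cells were mostly under 4 on all arrays, in 5 of 6 measured macrophage genes, 8 of 9 lymphocyte and natural killer genes, 3 of 4 plasmacytoid dendritic cell genes and 5 of 7 endothelial genes. The mean level of the macrophage list ran from 2.91 to 2.93 on bevacizumab arrays and from 2.93 to 2.97 on control arrays, and that of the lymphocyte list from 2.61 to 2.65 on bevacizumab arrays and from 2.55 to 2.65 on control arrays. The plasmacytoid list averaged 4.72 to 4.84 on bevacizumab arrays and 4.64 to 4.77 on control arrays, and the endothelial list 3.49 to 3.58 on bevacizumab arrays and 3.46 to 3.54 on control arrays. In the plasmacytoid list only TCF4 was above 4, at 11.44 to 12.20, and its other genes read at most 2.94. The leukocyte gene PTPRC read 2.26 to 2.48, and CD3E, CD14, ITGAM, CD163 and CDH5 were at or near 2.23. The glioma list averaged 8.35 to 8.49 on bevacizumab arrays and 8.23 to 8.25 on control arrays, where CHI3L1 rose by 1.60 and NES fell by 1.18 (limma adjusted p = 0.0174 and 0.00725). The probes are designed on human transcripts, and signal from host mouse RNA could not be taken out. The macrophage, lymphocyte, plasmacytoid and endothelial lists therefore cannot show how many mouse host cells the tumours held, or whether the groups differed in them. The 3' minus 5' difference of the ACTB control probe sets, a sign of RNA degradation, read 1.94, 1.86 and 1.64 on bevacizumab arrays and 1.14, 1.33 and 1.66 on control arrays (difference 0.43, two-sided exact permutation p = 0.2, where 0.1 is the smallest possible). The same difference for GAPDH was -0.02 ± 0.03 on bevacizumab arrays and -0.12 ± 0.02 on control arrays (SD, n = 3 each, exact permutation p = 0.1).

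Bevacizumab tumours had lower levels of several classical interferon-stimulated genes, among them IFIT1, IFI44, TRIM22 and ISG15, and higher levels of IFNAR1 and IRF1. Other hallmark genes of the response, including MX1, RSAD2 and BST2, were under 4 on every array. Of the 47 members with a mean of at least 4 that were tested, 7 fell, 2 rose and 38 did not pass an adjusted p of 0.05 (limma, Benjamini-Hochberg over all 10233 genes). Among all genes tested 19.1% passed, 9.97% lower and 9.09% higher, and among the members the shares were 19.1% in all, 14.9% lower and 4.26% higher. The share of members called was thus that of all genes in this fit. Arrays were also centred on the median of their single-gene probe sets averaging at least 4, not of all probe sets. In that fit 14 members passed (29.8%, against 21.4% of all genes), 12 of them lower (25.5%, against 12.4% of all genes). With a filter at 6 the shares were 31.7% of members and 23.2% of all genes. With no filter they were 5.77% and 9.49%, and with all probe sets of a gene averaged 15.9% and 18.7%. For lower calls alone they were 5.77% and 5.12% with no filter, and 13.6% and 10.1% with probe sets averaged. Leaving out probe sets of the types _s_at, _x_at and _a_at gave 5.88% and 7.54% for lower calls. The share of members was thus above that of all genes in some settings and below it in others, also for lower calls alone. In the first fit the median difference, bevacizumab minus control, was -0.22 over the tested members and -0.01 over all genes tested. The difference was below 0 in 33 of the 47 members (70.2%), against 51.4% of all genes. Groups did not overlap in 19 members, 14 of them lower and 5 higher after bevacizumab, or 40.4% of the members against 41.0% of all genes. By direction, 29.8% of the members were lower without overlap against 22.0% of all genes, and 10.6% were higher against 19%. With the ACTB difference as a covariate in limma 24 of all 10233 genes passed and 0 of the 47 members did. At an unadjusted p under 0.05 there were 2643 of all genes and 16 members in that fit. The median of the members was -0.25. In RNA of whole tumours, fewer cells that express a gene and less of its RNA per cell cannot be told apart.

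**Figure D1:**
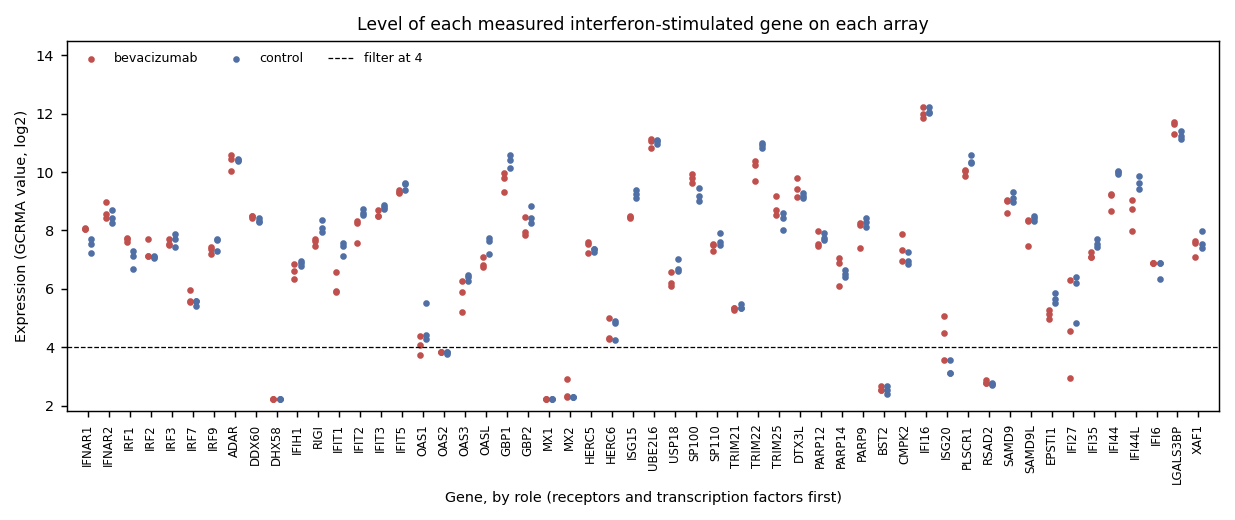
Deposited log2 expression of each of the 54 measured members, grouped by role along the x axis, with 3 bevacizumab arrays left of 3 control arrays (1 point per array). MX1, MX2, DHX58, OAS2, RSAD2 and BST2 lie under the dashed filter at 4 on all 6 arrays, and ISG20 crosses it on 2 bevacizumab arrays.

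A receptor gene was among the 2 that rose. IFNAR1, the receptor chain that recruits TYK2, read 8.09, 8.04 and 8.04 on bevacizumab arrays 1 to 3 and 7.55, 7.24 and 7.70 on control arrays 1 to 3. All bevacizumab arrays lay above all controls, and IFNAR1 rose by 0.56 (SE 0.13, limma adjusted p = 0.0345), a 1.48-fold change. A second probe set of the gene gave 0.29 and did not pass, and its other probe sets were at most 2.49. The mean of all its probe sets, dim ones included, differed by 0.23 (adjusted p = 0.0669). The IFNAR1 call held in 1 of 6 leave-one-out fits, the one without control 3 (adjusted p from 0.0433 to 0.0938). IFNAR2, the chain that docks STAT2, read 8.42, 8.98 and 8.57 in bevacizumab tumours and 8.27, 8.69 and 8.42 in control tumours, and the groups overlapped (difference 0.20, 95% interval -0.24 to 0.64, adjusted p = 0.473).

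Of 5 tested transcription factor genes 1 rose and none fell, where 19.1% of all genes passed in either direction. IRF1, a factor that interferon itself induces and that switches on many of the same genes, read 7.72, 7.74 and 7.61 after bevacizumab and 6.69, 7.30 and 7.13 in controls. The groups did not overlap, and IRF1 rose by 0.65 (SE 0.17, adjusted p = 0.0443), with 0.95 on its dimmer probe set. The IRF1 call was lost in each of the 6 fits without an array (adjusted p up to 0.117), with quantile normalization and with centred arrays. In the fit across all probe sets the dimmer one passed (adjusted p = 0.0386) and the brighter did not (adjusted p = 0.0545). The mean of both IRF1 probe sets differed by 0.80 (adjusted p = 0.0181). IRF9, the DNA-binding part of ISGF3, read 7.21, 7.45 and 7.36 after bevacizumab and 7.68, 7.29 and 7.69 in controls (difference -0.22, adjusted p = 0.314). IRF2, a repressor of IRF1 targets, differed by 0.23 (adjusted p = 0.38), and bevacizumab 2 at 7.69 stood above the other arrays, which lay between 7.04 and 7.13. IRF7, which amplifies interferon production, differed by 0.18 and IRF3, which starts it after virus sensing, by -0.10, both with overlapping groups.

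Of 4 tested RNA sensing genes 1 fell and none rose, where 19.1% of all genes passed in either direction. RIGI, the cytosolic sensor of viral RNA ends, read 7.63, 7.70 and 7.48 on bevacizumab arrays and 8.08, 7.95 and 8.36 on control arrays on its brightest probe set. It fell by 0.53 (SE 0.13, adjusted p = 0.0416), and the groups did not overlap. The other probe sets of RIGI gave -0.91 and -1.40 with groups that did not overlap either, so the probe set standing for the gene showed the smallest of the 3 differences, and their mean differed by -0.95 (adjusted p = 0.0478). None of the RIGI probe sets passed in the fit across all probe sets, and the gene's call was lost in all 6 fits without an array (adjusted p from 0.0663 to 0.109). IFIH1, the sensor of long double-stranded RNA also called MDA5, read 6.86, 6.62 and 6.33 after bevacizumab and 6.88, 6.94 and 6.78 in controls (difference -0.27, adjusted p = 0.25). DDX60, a helicase linked to RIG-I signalling, read 8.48, 8.48 and 8.43 after bevacizumab and 8.29, 8.41 and 8.34 in controls (difference 0.11, adjusted p = 0.339). ADAR, which edits double-stranded RNA, gave -0.05 with overlapping groups. DHX58, the regulator LGP2, read 2.23 on every array and was not tested.

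IFIT proteins bind the caps and ends of viral RNA, and 1 of the 4 tested IFIT genes fell (19.1% of all genes passed). IFIT1, with the largest change among members past the threshold, read 5.91, 6.57 and 5.88 in bevacizumab tumours and 7.57, 7.13 and 7.47 in control tumours. Every bevacizumab array was below every control, with bevacizumab 2 the nearest to the controls. IFIT1 fell by 1.27 (SE 0.22, 95% interval -1.81 to -0.73, adjusted p = 0.0153), the only called member with a change of at least 2-fold. The call was lost without control 1 or control 3 (adjusted p up to 0.066). IFIT2 read 8.33, 8.24 and 7.58 in bevacizumab tumours and 8.54, 8.60 and 8.74 in control tumours. The groups were apart, but the difference of -0.57 did not pass (adjusted p = 0.108), and bevacizumab 3 was the lowest array. IFIT3 (difference -0.24, adjusted p = 0.125) and IFIT5 (difference -0.19, adjusted p = 0.21) did not pass, and a second probe set of each was close to 0, at 0.02 and 0.04.

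ISG15, the ubiquitin-like protein that is attached to other proteins during the interferon response, had the smallest p of the members. It was the 1 gene of 5 tested in its conjugation system to pass, where 19.1% of all genes passed. It read 8.47, 8.44 and 8.51 after bevacizumab and 9.39, 9.11 and 9.26 in controls. The SD was 0.03 in bevacizumab tumours and 0.14 in control tumours, and the groups lay well apart. ISG15 fell by 0.78 (SE 0.10, 95% interval -1.02 to -0.54, adjusted p = 0.00698). It was the only called member that passed in all 6 fits without an array, with adjusted p from 0.0159 to 0.0354, and it did not pass with the ACTB covariate (difference -0.71, adjusted p = 0.0896). USP18, the protease that removes ISG15 and dampens receptor signalling, read 6.20, 6.58 and 6.10 in bevacizumab tumours and 6.61, 6.67 and 7.03 in control tumours. The USP18 groups did not overlap, yet the difference of -0.48 did not pass (adjusted p = 0.107). HERC5, the main human ligase for ISG15, gave 0.14, the conjugating enzyme gene UBE2L6 -0.04 and HERC6 -0.13, each with overlapping groups. The UBE2L6 interval ran from -0.31 to 0.24.

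Promoters of called members are shown because the classical targets share a sequence element. The core of the interferon-stimulated response element was searched as GAAA, any 2 bases and GAAA on both strands of the 250 bases before each RefSeq gene start (GRCh38.p14), and a gene counted if any of its listed starts held a match. Among the 43 members with a promoter entry, 24 held it (55.8%), against 3.71% of 27305 genes. Of the members that fell, 4 of 6 with a promoter held it, against 16 of 30 that did not pass, none of the 2 that rose and all 4 under the filter. The element was therefore also found before genes that read under 4 on these arrays, such as BST2. The gamma-activated site, searched as TTCNNNGAA, which reads the same on both strands, was found in 11 of the 43 members and in 8.09% of all genes. A match is a description of the letters, not evidence of binding. The members shown have the smallest p among called members with a match, and capitals mark the response element core.
ISG15, chr1:1013247-1013496, plus strand: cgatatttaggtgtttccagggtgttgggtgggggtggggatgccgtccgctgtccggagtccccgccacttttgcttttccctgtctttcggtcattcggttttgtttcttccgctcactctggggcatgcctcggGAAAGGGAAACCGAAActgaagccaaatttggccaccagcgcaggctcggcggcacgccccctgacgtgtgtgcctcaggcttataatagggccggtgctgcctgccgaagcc
IFIT1, chr10:89392373-89392622, plus strand: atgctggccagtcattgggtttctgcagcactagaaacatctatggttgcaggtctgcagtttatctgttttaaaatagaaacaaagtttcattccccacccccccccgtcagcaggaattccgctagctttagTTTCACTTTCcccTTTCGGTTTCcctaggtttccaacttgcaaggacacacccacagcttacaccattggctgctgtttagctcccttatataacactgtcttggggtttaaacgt
IFI44, chr1:78649539-78649788, plus strand: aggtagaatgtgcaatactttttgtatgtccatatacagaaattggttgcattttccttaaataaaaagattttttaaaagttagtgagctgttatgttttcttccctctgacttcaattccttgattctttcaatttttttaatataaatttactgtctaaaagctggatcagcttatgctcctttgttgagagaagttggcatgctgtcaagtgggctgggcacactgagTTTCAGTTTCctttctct
EPSTI1, chr13:42992242-42992491, minus strand: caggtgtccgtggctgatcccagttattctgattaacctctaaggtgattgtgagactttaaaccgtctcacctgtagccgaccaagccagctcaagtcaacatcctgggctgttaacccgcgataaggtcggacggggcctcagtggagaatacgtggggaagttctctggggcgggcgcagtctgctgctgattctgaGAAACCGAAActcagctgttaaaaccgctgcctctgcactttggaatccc
ISG15 held 2 overlapping matches that begin 113 and 107 bases before the gene start, and IFIT1 held 2 on the opposite strand at 116 and 103 bases. The IFI44 start shown, 1 of 2 listed, held 1 match at 18 bases and EPSTI1 held 1 at 50 bases.

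**Figure D2:**
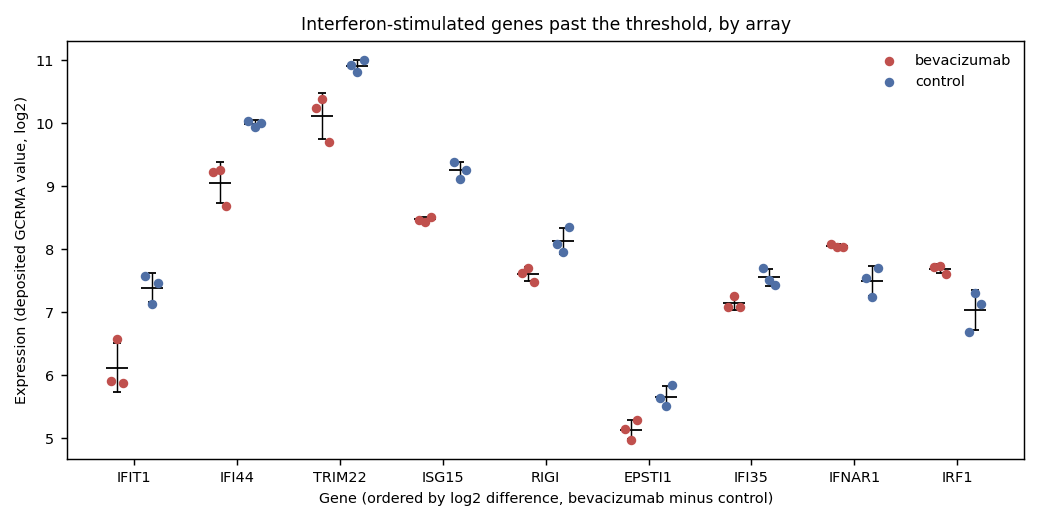
Deposited log2 expression of the 9 members past the threshold, ordered from the lowest to the highest log2 difference, with 3 bevacizumab arrays (red) left of 3 control arrays (blue), and bars for the mean and SD. In 7 genes all bevacizumab arrays lie below all controls, and in IFNAR1 and IRF1 all lie above.

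Of 8 tested other interferon-induced genes 3 fell and none rose, where 9.97% of all genes fell and 9.09% rose. IFI44, a cytosolic protein induced by type I interferon, read 9.23, 9.26 and 8.68 after bevacizumab and 10.04, 9.94 and 10.01 in controls. The controls were tight, the groups did not overlap, and IFI44 fell by 0.94 (SE 0.17, adjusted p = 0.0167). Its second probe set gave the same size, -0.94, with a wider spread, and did not pass (SE 0.44, adjusted p = 0.194). The mean of both also differed by -0.94 and did not pass (adjusted p = 0.0727). The IFI44 call was lost without any 1 of the controls (adjusted p up to 0.0688). IFI44L, its paralogue, read 9.05, 8.74 and 7.98 in bevacizumab tumours and 9.63, 9.41 and 9.86 in control tumours. That difference was larger, -1.04, but its spread was wider as well and it did not pass (SE 0.29, adjusted p = 0.0529). EPSTI1 fell by 0.52 (SE 0.13, adjusted p = 0.0389), with 5.14, 4.98 and 5.29 after bevacizumab against 5.64, 5.51 and 5.84 in controls, and its dimmer probe set gave -0.06 (mean of both -0.29, adjusted p = 0.23). IFI35 read 7.09, 7.26 and 7.08 after bevacizumab against 7.70, 7.52 and 7.44 in controls. IFI35 fell by 0.41 (SE 0.11, adjusted p = 0.0436), a call lost in all 6 fits without an array (adjusted p up to 0.126). EPSTI1 held its call in 1 of those fits, the one without bevacizumab 3 (adjusted p from 0.0468 to 0.11).

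IFI27, among the strongest interferon-induced genes in many tissues, varied widely within both groups. It read 2.96, 4.57 and 6.29 after bevacizumab and 6.21, 4.83 and 6.39 in controls. Its SD of 1.66 among bevacizumab tumours was the largest of any tested member, and the difference of -1.20 had an interval from -3.32 to 0.92 (adjusted p = 0.363). XAF1, a gene linked to apoptosis, differed by -0.20 (adjusted p = 0.52). A dimmer XAF1 probe set gave -0.43 with groups that did not overlap, and did not pass in the fit across all probe sets (adjusted p = 0.114). LGALS3BP, a secreted glycoprotein, differed by 0.30 (adjusted p = 0.192). IFI6 differed by 0.18, with 6.87 on all arrays other than control 2 at 6.32. The SD of IFI6 among bevacizumab arrays was 0.00012, and whether such near-identical values are a measured level was not tested.

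The OAS enzymes sense double-stranded RNA and, OASL apart, make a messenger that activates RNase L. None of the 3 tested OAS genes passed, and their median difference was -0.65. OASL read 6.81, 6.75 and 7.08 after bevacizumab and 7.75, 7.19 and 7.65 in controls, with a difference of -0.65 (SE 0.18, adjusted p = 0.0516). The OASL groups were apart and its second probe set gave -0.33. OAS3 read 5.88, 6.28 and 5.21 in bevacizumab tumours and 6.46, 6.42 and 6.28 in control tumours, with a difference of -0.60 (adjusted p = 0.163). OAS1 lay close to the filter, at 4.06, 4.37 and 3.74 after bevacizumab and 5.51, 4.28 and 4.41 in controls (difference -0.67, adjusted p = 0.226), where control 1 stood above the rest. OAS2 was between 3.78 and 3.85 on its brightest probe set and was not tested. A dimmer OAS2 probe set, also untested, read 2.74, 3.11 and 2.44 after bevacizumab and 4.39, 3.11 and 3.67 in controls.

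Neither of the 2 tested interferon-induced GTPase genes passed. GBP1, a guanylate-binding protein that attacks the membranes of intracellular pathogens, read 9.96, 9.31 and 9.78 after bevacizumab and 10.15, 10.40 and 10.57 in controls. The GBP1 groups did not overlap on that probe set, with a difference of -0.69 (SE 0.20, adjusted p = 0.0589), while its other tested probe sets gave -0.06 and -0.20. GBP2 read 8.45, 7.84 and 7.96 after bevacizumab and 8.25, 8.44 and 8.85 in controls, with overlapping groups (difference -0.43, adjusted p = 0.211), and its dimmer probe set gave -0.82. MX1, a blocker of influenza virus, read 2.23 on every array, and MX2, a blocker of HIV, lay between 2.31 and 2.90.

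Among 5 tested genes of TRIM and PML body proteins 1 fell and none rose, where 19.1% of all genes passed in either direction. TRIM22, an E3 ligase that restricts several viruses, read 10.25, 10.39 and 9.70 after bevacizumab and 10.93, 10.81 and 11 in controls. TRIM22 fell by 0.80 (SE 0.19, adjusted p = 0.0357), with bevacizumab 3 the lowest array. The call was kept without bevacizumab 2 or bevacizumab 3 and lost without any 1 of the other arrays (adjusted p from 0.0299 to 0.113). SP100, a PML body component, was on the other side of 0 at 9.62, 9.78 and 9.93 after bevacizumab and 9.19, 9.0 and 9.47 in controls. Its difference of 0.56 did not pass (SE 0.15, adjusted p = 0.0509), and its probe sets disagreed, with 0.52 on a second, and -0.24 on another where the groups also did not overlap. TRIM25, the ligase that activates RIG-I, differed by 0.46 (adjusted p = 0.198) on its brightest probe set and by -0.18 on the other. SP110 (-0.23) and the antibody receptor TRIM21 (-0.07) did not pass, although 1 dimmer SP110 probe set fell by 0.38 in the test of all probe sets.

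None of the 4 tested genes of ADP-ribosyltransferases and their partner DTX3L passed, and their median difference was 0.02. The PARP9 and DTX3L proteins work as a pair, and PARP9 read 8.25, 8.19 and 7.40 after bevacizumab and 8.28, 8.11 and 8.42 in controls (difference -0.32, adjusted p = 0.382). DTX3L, which shares a promoter region with PARP9 in the genome, gave 9.42, 9.78 and 9.14 in bevacizumab tumours and 9.19, 9.10 and 9.29 in control tumours (difference 0.26, adjusted p = 0.323). PARP12 (-0.11) and PARP14 (0.15) had overlapping groups as well.

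Of 5 tested other antiviral effectors none passed, and PLSCR1, a membrane phospholipid scramblase, came nearest to the threshold. It read 10.02, 10.08 and 9.88 after bevacizumab and 10.58, 10.34 and 10.30 in controls, with no overlap and a difference of -0.41 (SE 0.11, adjusted p = 0.0501). SAMD9, an antiviral factor against poxviruses, read 9.02, 9.03 and 8.61 after bevacizumab and 9.10, 8.98 and 9.31 in controls (difference -0.24, adjusted p = 0.299). SAMD9L (-0.37), the DNA sensor IFI16 (-0.06) and the nucleotide kinase CMPK2 (0.38) did not pass. In SAMD9L bevacizumab 3 stood below all other arrays, with 8.33, 8.36 and 7.47 after bevacizumab and 8.43, 8.34 and 8.51 in controls. RSAD2, which encodes viperin, lay between 2.71 and 2.88, and BST2, the virus tether tetherin, between 2.39 and 2.67. ISG20, an RNA exonuclease, was under the filter, with 4.49, 3.55 and 5.07 after bevacizumab and 3.12, 3.55 and 3.12 in controls. Its bevacizumab mean was 4.37, with no test, only 2 of the arrays were above 4, and bevacizumab 2 read the same as control 2. The dimmer ISG20 probe set, also untested, read 3.38, 3.31 and 5.10 after bevacizumab and 3.38, 3.38 and 3.28 in controls.

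**Figure D3:**
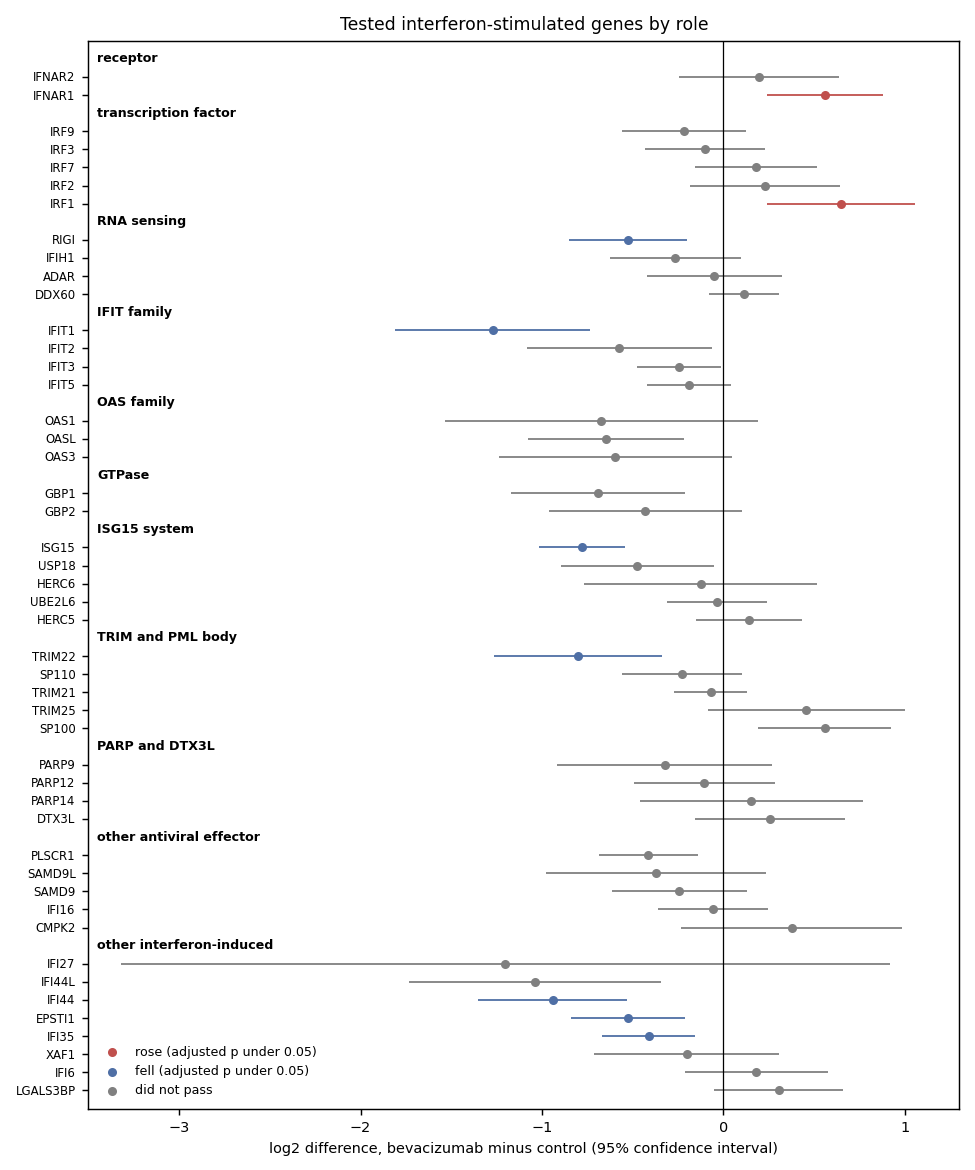
Log2 difference, bevacizumab minus control, with its 95% confidence interval for the 47 tested members by role, coloured blue (fell), red (rose) or grey (did not pass). The IFIT, OAS and GBP genes all lie left of 0, IFNAR1 and IRF1 lie right of it, and IFI27 has the widest interval, from -3.32 to 0.92.

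The members just outside the threshold were PLSCR1, SP100, OASL, IFI44L and GBP1, 5 genes with adjusted p between 0.05 and 0.06, and those just inside were IRF1 (0.0443), IFI35 (0.0436) and RIGI (0.0416). At an unadjusted p of 0.05 there were 17 members, or 36.2% against 35.8% of all genes. In the fit across all 18469 single-gene probe sets with a mean of at least 4, 6 of 75 tested member probe sets fell and 2 rose, or 10.7% against 15.4% of all (7.98% lower and 7.46% higher). Of the 19 members with more than 1 tested probe set, 11 were below 0 on all of them, 3 were above 0 on all, namely IFNAR1, IFNAR2 and IRF1, and 5 were mixed, namely IFIT3, IFIT5, SAMD9L, SP100 and TRIM25.

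**Figure D4:**
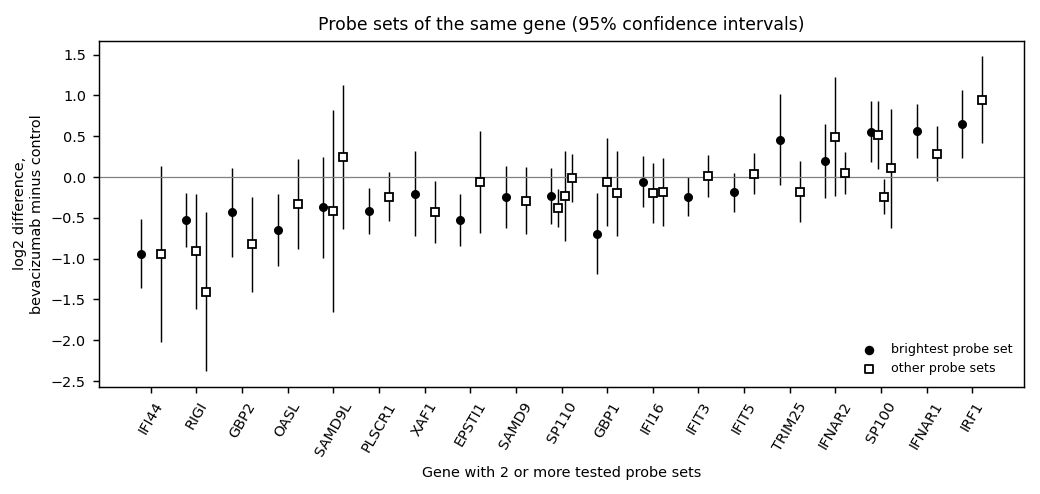
Log2 difference, bevacizumab minus control, of each tested probe set for the 19 members with more than 1, with 95% confidence intervals (filled circle, brightest probe set; open square, others). The probe sets of RIGI spread from -0.53 to -1.40 and those of SP100 lie on both sides of 0.

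The arrays of each group also differed among themselves. Bevacizumab 3 was the lowest of the 6 arrays in 22 of the 47 tested members (46.8%), against 25.6% of all genes tested, and the highest in only 1. Control 3 was the highest in 16 members (34.0%), against 24.7% of all genes. The median deviation of the tested members from their means over all arrays was -0.04, 0.00 and -0.21 on bevacizumab arrays 1, 2 and 3, and 0.11, 0.00 and 0.10 on control arrays 1, 2 and 3. Without bevacizumab 3 the median difference of the list was -0.09, without bevacizumab 1 it was -0.31, and the other fits that left out an array gave -0.16 to -0.27. The number of members past the threshold was 9 with all arrays. It was 5, 4 and 5 without bevacizumab 1, 2 or 3, and 1, 3 and 3 without control 1, 2 or 3. Of the 3 without control 3, 1 fell and 2 rose, while in the other fits all calls were lower. Over all genes it was 1950 with all arrays, 2074 without bevacizumab 1, and between 558 and 1476 in the other fits that left out an array. Bevacizumab 3 had the smallest ACTB 3' to 5' difference of its group, 1.64, next to 1.66 on control 3, and its part in these values was not tested. Within-group SDs of the tested members had a median of 0.25 in bevacizumab tumours and 0.16 in control tumours, against 0.18 and 0.13 over all genes.

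**Figure D5:**
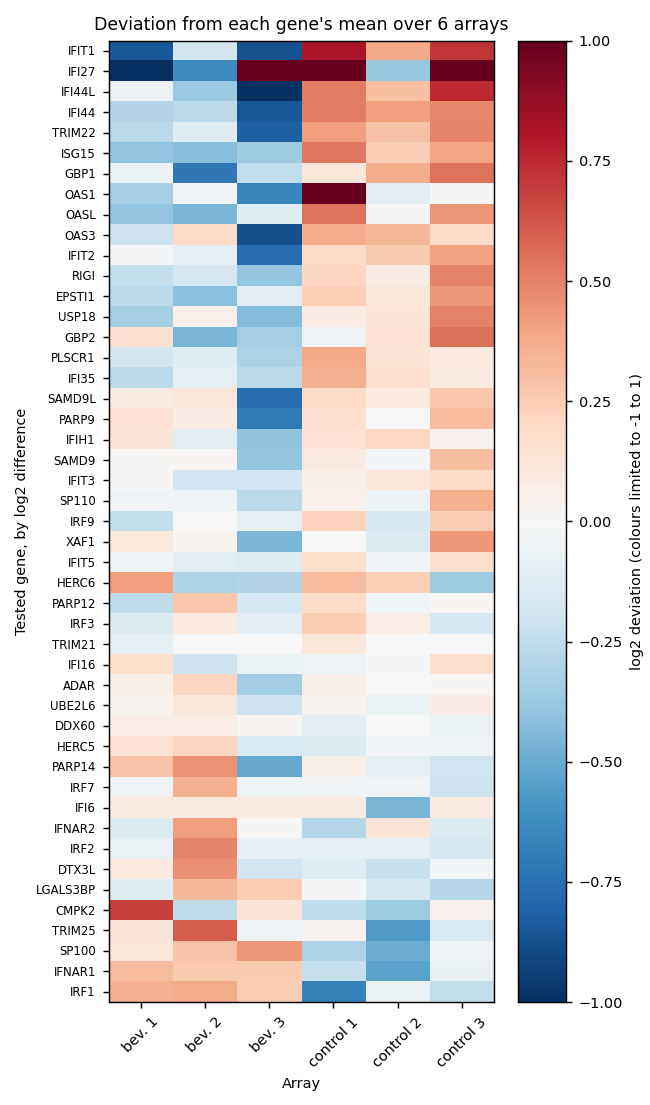
Deviation of each tested member (rows, from the lowest to the highest log2 difference) from its own mean over the 6 arrays, with bevacizumab arrays left of control arrays, and colours limited to deviations of -1 to 1. Bevacizumab 3 has the lowest value in 22 of 47 genes, more than any other array.

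The rest of the pathway was read from lists of 90 further genes, of which 83 had a probe set and 49 were tested. Of these 1 fell and 3 rose, which is 4 of 49 where 19.1% of all genes passed, and 45 did not pass (median difference 0.08). All measured interferon genes and the interferon lambda receptor gene IFNLR1, 19 genes in all and IFNB1 and IFNG among them, read at most 2.35 on every array. IFNGR1, the ligand-binding chain of the interferon gamma receptor, read 9.21, 9.36 and 9.63 after bevacizumab and 8.81, 8.91 and 8.94 in controls. The IFNGR1 groups were apart, and it rose by 0.51 (SE 0.13, adjusted p = 0.0413), while IFNGR2 differed by -0.04. The mean of the 3 IFNGR1 probe sets differed by only 0.12 (adjusted p = 0.638).

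In the JAK-STAT list JAK1, the kinase shared by interferon receptors, was the 1 gene of 10 tested past the threshold. It read 10.70, 11.10 and 10.97 after bevacizumab and 10.40, 10.48 and 10.44 in controls, and rose by 0.48 (SE 0.12, adjusted p = 0.041) on its brightest probe set. The mean of the 5 JAK1 probe sets differed by 0.09 (adjusted p = 0.453). TYK2 differed by 0.24 (adjusted p = 0.306) and SOCS3, a feedback inhibitor, by 0.53 (adjusted p = 0.125). Of 9 tested nucleic acid sensing genes TRAF3, an adaptor on the way to interferon induction, rose by 0.33 (SE 0.08, adjusted p = 0.0416) on its brighter probe set and the others did not pass. The mean of the 2 TRAF3 probe sets differed by 0.06 (adjusted p = 0.743). The adaptor and enzyme genes STING1 and CGAS were at 2.67 and 2.23 on every array.

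Among 27 tested further interferon-induced genes TRIM14, a mitochondrial adaptor of antiviral signalling, fell by 0.69 (SE 0.17, adjusted p = 0.0392), with 8.07, 7.89 and 7.61 after bevacizumab and 8.45, 8.37 and 8.82 in controls. That call rests on the brightest of its 5 probe sets, and TRIM14 was not tested in the fit on their mean. The antiviral kinase gene EIF2AK2 differed by -0.05 (interval crossing 0, adjusted p = 0.807). PNPT1 (-0.39, adjusted p = 0.052) and TRIM5 (-0.74, adjusted p = 0.0681) lay below 0 without passing. TNFSF10, the death ligand TRAIL, lay above 0 without passing (1.61, adjusted p = 0.0688). So did IFITM1 (0.77, adjusted p = 0.07), IFITM2 (0.43, adjusted p = 0.0714) and SHFL (0.39, adjusted p = 0.0787). The median difference of these 27 genes was -0.05, with 16 below 0 and 11 above. Groups did not overlap in 5 lower and 6 higher genes. The median of the members, -0.22, was thus not matched in this list. The chemokine genes CXCL9, CXCL10 and CXCL11 read 2.23 on every array. The calls of IFNGR1, JAK1, TRAF3 and TRIM14 each held in 1 of the 6 fits without an array, the one without bevacizumab 1. With the same centring of arrays as for the members, the split of this larger list was 3 lower and 0 higher in place of 1 lower and 3 higher. IFNGR1 (0.46, adjusted p = 0.0589), JAK1 (0.43, adjusted p = 0.0543) and TRAF3 (0.28, adjusted p = 0.115) then lost their calls with the direction kept, and TRIM14 differed by -0.74 (adjusted p = 0.0158).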

How the data were processed

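Xenograft RNA was measured on 6 Affymetrix 1-colour human arrays, 3 of the bevacizumab and 3 of the control group by the labels. The authors deposited log2 values made with GCRMA, a method that models background from probe base content before normalizing and summarising; GCOS 1.1.1.052 and GCRMA are named per the submitters' processing notes, and the log2 scale was inferred from the values. Arrays have no read depth, and the number of arrays limits the precision. Neither scan dates nor batches are in the sources used.

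Of 54675 probe sets, 41091 had 1 gene symbol in the platform annotation, updated by gene identifier to RefSeq symbols for 41037. The probe set with the highest mean stood for each of 19775 genes, and 10233 genes averaging 4 or more (log2) were tested with limma 3.58.1 in R 4.3.3 (lmFit, eBayes, no covariate, two-sided). An adjusted p under 0.05 (Benjamini-Hochberg) counts as past the threshold. All probe sets were fitted the same way. Promoters are RefSeq sequences.

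The members and lists were chosen with earlier results of these data known. Values were given for members past the threshold, for the 2 with the smallest p of each role group, and for pathway genes past the threshold or fixed by name; others are named for a role or for standing just outside the threshold, after their values were seen. Alternatives were another filter, floor, scaling, probe set choice, variance prior, an RNA quality covariate, a replicate block and leaving out each array. The fit was tested on simulated data. Same-numbered arrays of the groups had deviations correlated at -0.05, -0.01 and -0.05 over the genes tested, so the numbers were not treated as pairs.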

Additional observations from a re-analysis of the deposited data

How the results depend on the processing

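Of 201 recomputed values of the 13 named genes past the threshold, 92 kept their direction and call, 109 kept the direction and lost the call, and 0 changed sign. The median difference of the members stayed between -0.15 and -0.28 under the settings that kept all arrays, and between -0.31 and -0.09 when each array was left out in turn. The counts of calls moved more. In place of 9 members, 8 member probe sets and 4 other pathway genes, testing with no filter gave 3, 1 and 1, where 9.49% of all genes passed against 19.1%. Leaving out probe sets of the types _s_at, _x_at and _a_at gave 3, 3 and 2 (15.8% of all genes), and averaging all probe sets of a gene gave 7 members and 2 pathway genes (18.7%). The fit without those types tested 34 members in place of 47. ISG15, TRIM22 and IFI35 have only an _s_at probe set and were not tested in it. Quantile normalization and centred arrays each gave 14 members and 18 probe sets, 12 of those members lower, with 21.7% and 21.4% of all genes passing, and moved the median of all genes by at most 0.06. A filter at 6 gave 13 members, 15 probe sets and 8 pathway genes (23.2% of all genes). With the ACTB 3' to 5' covariate limma gave 0 in all counts, with 16 members, 19 probe sets and 11 pathway genes at an unadjusted p under 0.05. In that fit 2643 of all 10233 genes were under the same unadjusted p. Leaving out each array gave 1 to 5 members, 1 to 5 probe sets and 0 to 6 pathway genes. The fit with the replicate block gave 2 members, ISG15 (adjusted p = 0.0319) and IFI44 (adjusted p = 0.0444), with 1 probe set and 0 pathway genes. In it 904 of all genes passed against 1950. At an unadjusted p under 0.05 it gave 15 members, 14 pathway genes and 3119 of all 10233 genes. The cause of these changes was not tested. Genes that read at the lowest value of the table, such as MX1, have no measured level there.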
